A study of Mus musculus with 12 samples.

Results

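The hypoxia-inducible and glycolysis genes described here are 36 genes listed by name: the glucose and lactate transporters, the enzymes from glucose to lactate, 3 kinases that steer the pathway, 13 targets of the hypoxia-inducible factor (HIF) outside glycolysis, and Hif1a itself. They were followed through 12 RNA-seq libraries of 4T1, a line from a mammary carcinoma of BALB/c mice. Of the 36 genes, 35 had a row in the count table of 16283 genes and 34 passed a filter on low counts. Slc2a3, a glucose transporter gene, was not analysed here, and Slc16a3, a lactate exporter gene, had 0 to 5 counts in each library and was not tested. Of the 22 listed glycolysis genes (transporters, enzymes and kinases), 20 were tested, and all 13 non-glycolytic HIF targets were. The control cells carried a guide RNA to the neutral Rosa26 locus. The 2 other lines, both labelled as Cebpd knockout, each carried 1 of 2 guides, sgRNA1 or sgRNA2, against Cebpd, which encodes the transcription factor C/EBP delta. Every line was measured with vehicle and with interferon gamma (IFN-gamma) at 20 ng/ml for 24 hours, with 2 libraries in each of the 6 groups. The labels do not say whether a line is 1 clone or a pool of edited cells, and give no oxygen level, medium or cell density.

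HIF is a transcription factor made of an alpha subunit, such as the product of Hif1a, and the partner encoded by Arnt. While oxygen is plentiful, prolyl hydroxylases encoded by the Egln genes mark the alpha subunit, the VHL complex binds the mark, and the protein is degraded, so that much of the control lies in the protein and not in the mRNA. When it escapes this, HIF raises genes of glycolysis, blood vessel growth, mitophagy, pH control and matrix assembly, together with Egln genes that limit it in turn. Several glycolytic enzymes come as isoenzymes from separate genes, some of them HIF targets, and tumour cells often run glycolysis at a high rate even in air.

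Total counts per library lay between 16912710 and 24784371. Levels are given as CPM, read counts put on a common library size with TMM scaling, and differences as log2 fold changes ± SE from edgeR's quasi-likelihood test across all 12 libraries. A gene was called higher or lower at a Benjamini-Hochberg adjusted p below 0.05 over 13601 tested genes. The labels do not show that both libraries in a group are separate cultures, and p-values therefore measure only how far these samples spread, which may be a technical spread. Cebpd mRNA was present in all libraries, at 7.13 to 13.6 CPM in vehicle and 29.4 to 53.5 CPM with IFN-gamma, and its level does not check the edit of the gene. The epithelial markers Epcam, Krt8, Krt18, Krt7, Krt19, Krt14 and Cdh1, which are 7 of 8 listed, summed to 2614 to 4062 CPM. The 3 leukocyte markers with a row, of 7 listed, summed to 0.617 to 3.93 CPM outside the sgRNA2 vehicle group and to 7.88 and 9.59 CPM in it, nearly all of it Csf1r, with Ptprc and Itgam at 0 to 10 counts. The 2 endothelial markers with a row summed to at most 0.483 CPM, and the 2 fibroblast markers, mainly Pdgfra, to 14.1 to 32.3 CPM with the highest sums in sgRNA2 vehicle. Ribosomal protein genes made up 8.57% and 8.67% of counts in control vehicle, 11.2% in both sgRNA1 libraries, and 12.9% and 13.4% for sgRNA2. Mitochondrially encoded genes made up 0.62% and 0.67%, 0.814% and 0.839%, and 1.12% and 1.14% in the same order. With IFN-gamma they made up 0.533% to 1.18%, and ribosomal protein genes 7.17% to 11.3%. The part of these shares and of the marker levels in the results below was not tested.

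In vehicle, the sgRNA2 line held much more mRNA of HIF targets and of most glycolysis genes than the control line, and the sgRNA1 line was closer to control. With sgRNA2, 28 of the 34 tested members were higher than control and 2 were lower, where 73.3% of all tested genes were called, 38.3% higher and 35% lower. The median difference of the members was 1.21 against 0.06 over all genes, and 20 members were higher by at least 2-fold, which 17.2% of all genes were. With sgRNA1, 17 members were higher and 9 lower, where 52.5% of all genes were called, 25.6% higher and 26.9% lower, and the median was 0.11 against 0.03 over all genes. Only 2 members, Eno2 and Vegfa, were higher by at least 2-fold with sgRNA1, where 4.93% of all genes were. Both comparisons use the same 2 control libraries, and n is 2 in every group here and below. With upper quartile scaling the median of all genes moved from 0.03 to 0.13 with sgRNA1 and from 0.06 to 0.23 with sgRNA2. Of the genes called, 62.8% and not 48.8% were then higher with sgRNA1, and 62.5% and not 52.3% with sgRNA2, while 20 and 31 members were higher.

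The HIF targets outside glycolysis stood further from control than the glycolysis genes. With sgRNA2, all 13 HIF targets were higher, 12 of them by at least 2-fold, with a median of 1.87 and a range from 0.50 to 3.54. Of the 20 glycolysis genes, 15 were higher, 8 of them by at least 2-fold, and 1 was lower, with a median of 0.54 and a range from -0.16 to 3.61. With sgRNA1, 9 of 13 HIF targets were higher and 1 was lower, with a median of 0.50, and 8 of 20 glycolysis genes were higher and 8 lower, with a median of -0.05. The 2 ranges with sgRNA2 overlap widely, since Eno2 and Aldoc among the glycolysis genes had differences near those of Adm and Vegfa among the HIF targets. The median of the HIF targets exceeded that of the glycolysis genes by 1.34 with sgRNA2, and by 0.81 when 7 members whose reads could be shared with another gene were left out.

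**Figure D1:**
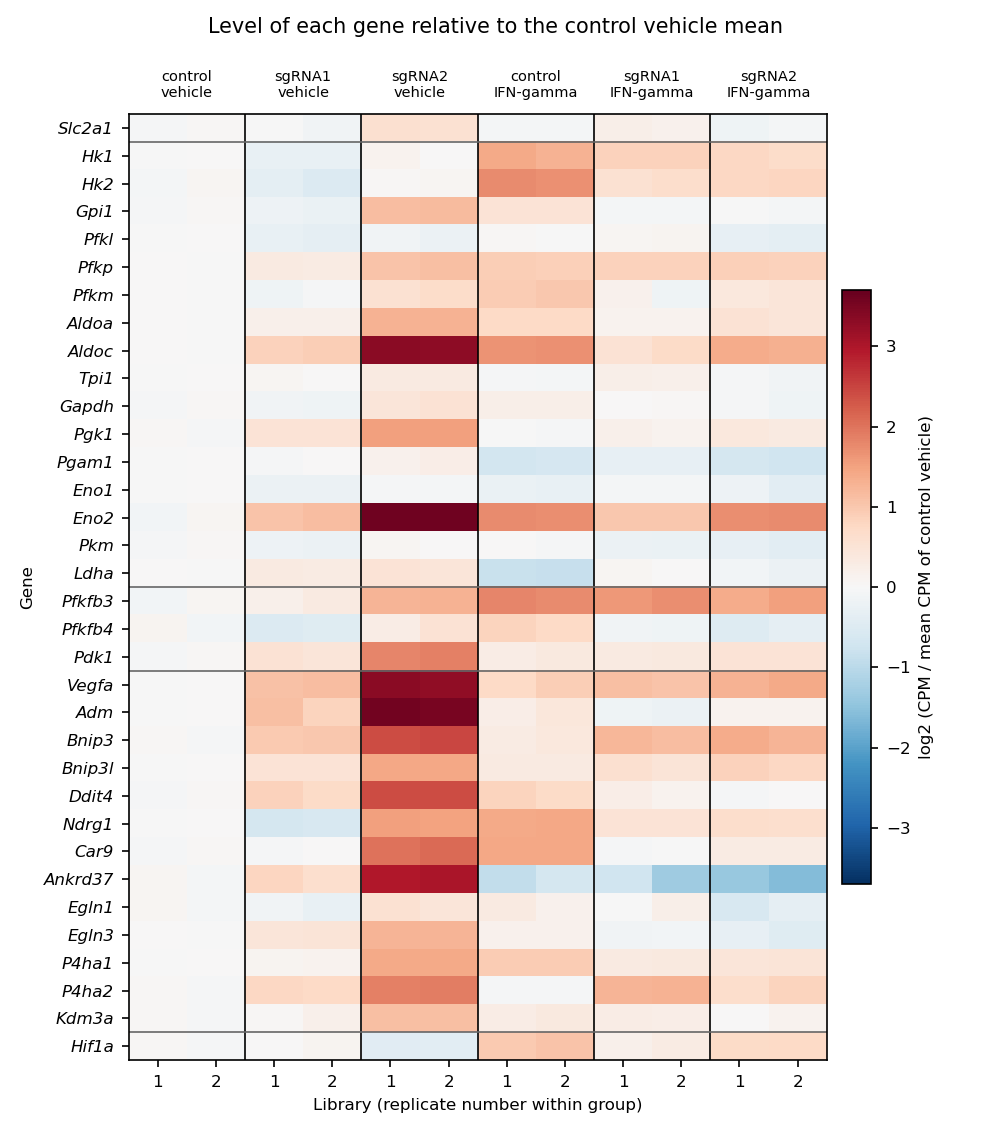
Heat map of the 34 tested members (rows, in the order of their roles) in the 12 libraries (columns, 2 per group): colour gives log2 of CPM over the mean CPM of control vehicle, red above and blue below it. The sgRNA2 vehicle columns are red for most rows, darkest for Aldoc, Eno2, Vegfa, Adm and Ankrd37, while Ankrd37 is blue in all 6 IFN-gamma columns.

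Most members carry the core that HIF binds close to a transcript start. Promoter windows from RefSeq on GRCm38.p6, running from 250 bases before to 50 after a start, were matched for 33 of the 36 members. They were searched on both strands for ACGTG and GCGTG, and ACGTG also lies within CACGTG, the E-box of other factors. At least 1 of the 2 cores was in a window of 30 of the 33 members (90.9%), against 67.9% of the tested genes with a window and 46.7% of all genes with one. ACGTG alone was in 23 of 33 (69.7%), against 29.4% and 21.8%. A gene counted if any of its windows held a core. The 33 members had 49 windows, and the 10026 tested genes had 12837. By window, 77.6% of member windows held either core, against 61.7% for tested genes. For ACGTG the shares by window were 53.1% and 25.4%. Members were listed by name, many as HIF targets, and the excess was not tested. Mean GC content was 61.6% in the member windows and 60.6% in those of tested genes. The stretches below show the core in capitals, 5′ to 3′ on the strand named, first for members far above control with sgRNA2 and then for Pkm and Hk2, which were not called there. A match describes the letters only.
Vegfa, chr17:46025360-46025384, plus strand: ttgctctctgACGTGggcacgcact
Adm, chr7:110627557-110627581, minus strand: tccctctccaGCGTGcttgcttcta
Ankrd37, chr8:45999842-45999866, minus strand: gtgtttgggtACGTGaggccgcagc
Bnip3, chr7:138909599-138909623, minus strand: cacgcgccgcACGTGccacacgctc
Ddit4, chr10:59951943-59951967, minus strand: aacgttgcgaACGTGcgcccggtgc
Car9, chr4:43506998-43507022, minus strand: gacgggctgtACGTGcatcggaaat
Pgk1, chrX:106186940-106186964, plus strand: gtcgtgcaggACGTGacaaatggaa
Pkm, chr9:59657142-59657166, minus strand: tgcggcgcggACGTGaccggatcgg
Hk2, chr6:82774492-82774516, plus strand: ccggacagtgACGTGgatgtgctca
Positions are counted along each gene's strand from the start that set the window. The first base of the core lies at -211 for Vegfa, -90 for Adm and -6 for Ankrd37. It lies at -107 for Bnip3, where it is within CACGTG, and at -187 for Ddit4. It lies at -18 for Car9, -150 for Pgk1, -75 for Pkm and -52 for Hk2. For Vegfa, Ankrd37 and Pkm that start lies well inside the annotated gene, whose 5′ end is at 46032369, 46005707 and 59656368. For Bnip3, Ddit4 and Car9 it also lies inside, but closer to the 5′ end, at 138909519, 59951834 and 43506966. Vegfa and Pkm each had 2 windows, of which 1 held a core. Eno2, the member with the largest difference, had neither core in its 1 window, nor had Gpi1 or Tpi1, while Pkm and Hk2 had one.

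Among the secreted HIF targets, Vegfa, the growth factor of blood vessels, was at 23.5 and 23.8 CPM in control, 50.2 and 52 CPM for sgRNA1 and 237 and 229 CPM for sgRNA2 in vehicle. The libraries of the 3 lines did not overlap, and sgRNA1 lay between control and sgRNA2. The difference from control was 1.11 ± 0.07 with sgRNA1 and 3.30 ± 0.06 with sgRNA2, a 9.86-fold level (adjusted p = 4.85e-17). Adm, which encodes the vasodilator peptide adrenomedullin, was at 7.28 and 7.29 CPM in control, 15.6 and 12.8 CPM for sgRNA1 and 86.8 and 82.3 CPM for sgRNA2. It kept the same order of lines with the largest gap between the guides, and its differences from control were 0.97 ± 0.11 and 3.54 ± 0.10 (adjusted p = 2.79e-15).

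Targets that act on mitochondria and on growth signalling took the same order. Bnip3, a mitophagy receptor, was at 160.1 and 153 CPM in control, 309 and 314 CPM for sgRNA1 and 843 and 865 CPM for sgRNA2, so that each line stood apart from the others. It differed from control by 0.99 ± 0.05 with sgRNA1 and 2.45 ± 0.05 with sgRNA2. Its relative Bnip3l was at 269 and 271 CPM in control, 382 and 383 CPM for sgRNA1 and 732 and 726 CPM for sgRNA2, with differences of 0.50 ± 0.05 and 1.43 ± 0.05. Ddit4, which encodes REDD1, an inhibitor of mTORC1, was at 199 and 209 CPM in control, 365 and 335 CPM for sgRNA1 and 1086 and 1088 CPM for sgRNA2. The sgRNA2 libraries were far above both other lines, with a difference from control of 2.42 ± 0.05 against 0.78 ± 0.05 with sgRNA1.

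Ndrg1, Car9 and Ankrd37 separated the guides by more than 2 on the log2 scale. Ndrg1, a stress-induced gene often used as a hypoxia marker, was at 408 and 418 CPM in control, 266 and 274 CPM for sgRNA1 and 1178 and 1162 CPM for sgRNA2. Its sgRNA1 libraries lay below control and its sgRNA2 libraries above, with differences of -0.62 ± 0.04 (adjusted p = 9.14e-10) and 1.50 ± 0.04 (adjusted p = 7.42e-16). Car9, the membrane carbonic anhydrase that exports acid equivalents, was at 45.8 and 48.3 CPM in control, 45.2 and 47.5 CPM for sgRNA1 and 188 and 200.2 CPM for sgRNA2. The sgRNA1 and control libraries overlapped (difference -0.02 ± 0.06), and the sgRNA2 libraries were 4.13 times the control level (2.05 ± 0.05). Ankrd37, a small ankyrin repeat gene, was at 13.1 and 12 CPM in control, 21.9 and 19.4 CPM for sgRNA1 and 97.8 and 101 CPM for sgRNA2. It rose with both guides, by 0.72 ± 0.12 and 2.99 ± 0.11, but shares exon bases with Ufsp2 and Lrp2bp on the other strand, and the library kit does not mark strand.

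The enzymes of this group use oxygen as a substrate. Egln3, a prolyl hydroxylase that is itself induced by HIF, was at 135 and 134 CPM in control, 185 and 186 CPM for sgRNA1 and 321 and 319 CPM for sgRNA2. It rose with sgRNA1 by 0.46 ± 0.05 and with sgRNA2 by 1.25 ± 0.05. Egln1, the main hydroxylase acting on HIF alpha, was at 145 and 129 CPM in control, 125 and 113 CPM for sgRNA1 and 201 and 186 CPM for sgRNA2, higher with sgRNA2 by 0.50 ± 0.09 and not called with sgRNA1 (-0.20 ± 0.09), whose libraries lay below control. Without control replicate 2 the sgRNA1 difference was called (-0.282, adjusted p = 0.0424). P4ha1 and P4ha2 encode the catalytic subunits that hydroxylate collagen. P4ha1 was at 132 and 134 CPM in control, 143 and 146 CPM for sgRNA1 and 352 and 348 CPM for sgRNA2, and differed from control by 0.12 ± 0.04 and 1.40 ± 0.04. The smaller of these was not called when control replicate 1 (0.105, adjusted p = 0.127), control replicate 2 (0.135, adjusted p = 0.0518) or sgRNA1 replicate 2 (0.104, adjusted p = 0.132) was left out. P4ha2 was at 18.8 and 17.6 CPM in control, 30.6 and 30.4 CPM for sgRNA1 and 66.3 and 67.1 CPM for sgRNA2, with each line apart and differences of 0.75 ± 0.08 and 1.87 ± 0.07. Kdm3a, a histone demethylase gene, was at 83.5 and 79.9 CPM in control, 84 and 92.2 CPM for sgRNA1 and 176 and 176 CPM for sgRNA2. It was higher with sgRNA2 by 1.10 ± 0.06 and not called with sgRNA1 (0.11 ± 0.06). The sgRNA1 difference was called with upper quartile scaling (0.21, adjusted p = 0.00574) and without sgRNA1 replicate 1 (0.175).

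Hif1a mRNA went the other way from its targets. It was at 219 and 205 CPM in control, 214 and 226 CPM for sgRNA1 and 160.4 and 162 CPM for sgRNA2, so the sgRNA2 libraries were the lowest and the other 2 lines overlapped. The difference was -0.40 ± 0.05 with sgRNA2 (adjusted p = 1.82e-06) and 0.05 ± 0.05 with sgRNA1, which was not called. With upper quartile scaling Hif1a was called higher with sgRNA1 (0.154, adjusted p = 0.0184). HIF protein was not measured in these files.

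**Figure D2:**
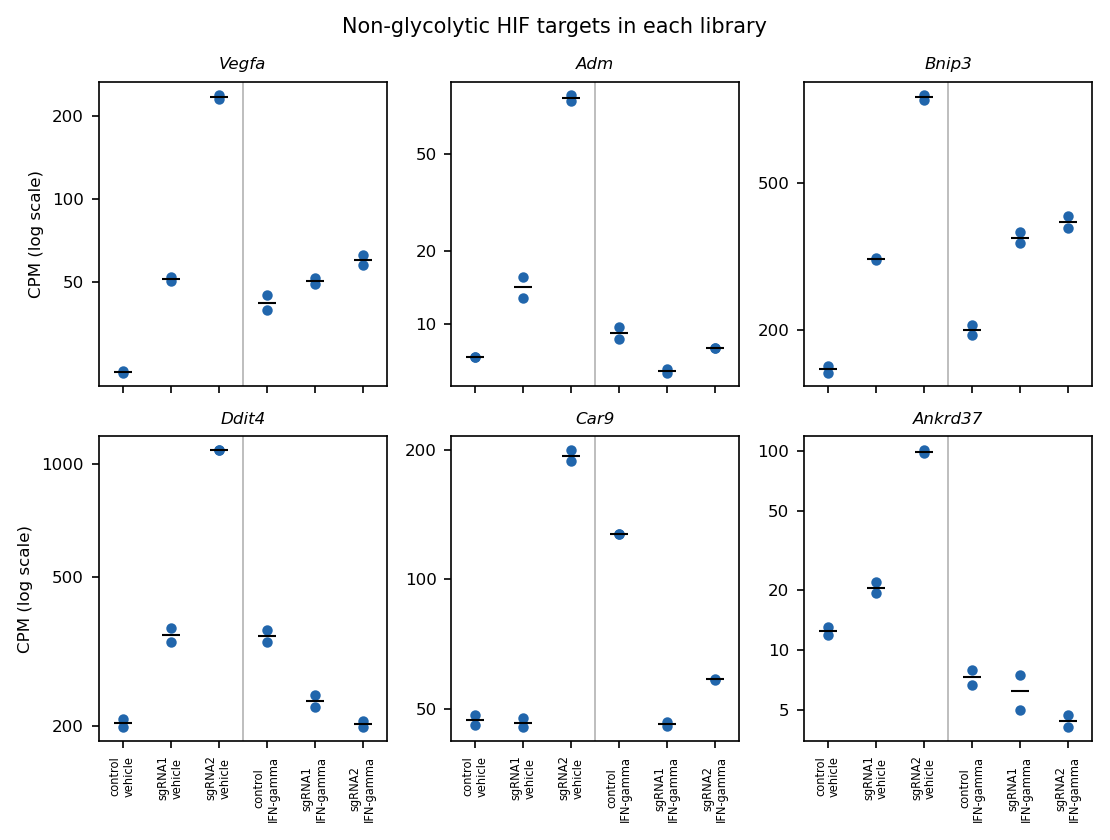
CPM (log axes, which differ between panels) of 6 non-glycolytic HIF targets in the 6 groups: each point is 1 library and each bar the mean of 2. In vehicle (left of the line) sgRNA2 is the highest group in all 6 panels, and with IFN-gamma Car9 and Ddit4 are highest in control while Bnip3 is highest with sgRNA2.

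Among the genes that bring glucose in and trap it, the response was small. Slc2a1, which encodes the glucose transporter GLUT1, was at 164 and 173 CPM in control, 165 and 155 CPM for sgRNA1 and 254 and 250 CPM for sgRNA2. It was higher with sgRNA2 by 0.59 ± 0.05 and overlapped control with sgRNA1 (-0.07 ± 0.05). The hexokinase genes, whose products phosphorylate glucose, were not called with sgRNA2. Hk1 was at 138 and 141 CPM in control, 115 and 116 CPM for sgRNA1 and 151 and 140.1 CPM for sgRNA2, lower with sgRNA1 by 0.28 ± 0.05 and different by 0.06 ± 0.05 with sgRNA2. Hk2, the HIF-responsive isoenzyme, was at 110.4 and 121 CPM in control, 90.1 and 81.6 CPM for sgRNA1 and 118 and 121 CPM for sgRNA2, lower with sgRNA1 by 0.43 ± 0.06 and different by 0.04 ± 0.06 with sgRNA2. With upper quartile scaling both hexokinases were called higher with sgRNA2, at 0.229 for Hk1 (adjusted p = 0.000527) and 0.212 for Hk2 (adjusted p = 0.00266).

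At the next steps the isoenzymes parted. Gpi1, the isomerase gene, was at 417 and 440.1 CPM in control, 374 and 364 CPM for sgRNA1 and 953 and 964 CPM for sgRNA2. The sgRNA1 libraries were below control and the sgRNA2 libraries above, with differences of -0.22 ± 0.04 and 1.16 ± 0.04 (adjusted p = 0.000252 and 3.88e-14). The 3 phosphofructokinase genes encode subunits of the enzyme that commits sugar to glycolysis. Pfkp, the platelet-type subunit, was at 102 and 98.7 CPM in control, 127 and 125 CPM for sgRNA1 and 209 and 218 CPM for sgRNA2, higher by 0.33 ± 0.04 with sgRNA1 and 1.09 ± 0.04 with sgRNA2. Some of its exon bases overlap Pitrm1 on the other strand, and Pfkm likewise overlaps Senp1, so both are uncertain to that extent. Pfkm, the muscle-type subunit, was at 28.4 and 28.3 CPM in control, 25.4 and 27.6 CPM for sgRNA1 and 42.2 and 45.4 CPM for sgRNA2, higher with sgRNA2 by 0.63 ± 0.08 and not called with sgRNA1. Pfkl, the liver-type subunit, was at 379.8 and 391 CPM in control, 320.3 and 305 CPM for sgRNA1 and 355 and 333 CPM for sgRNA2, lower with sgRNA1 by 0.30 ± 0.05 and with sgRNA2 by 0.16 ± 0.05. The second of these Pfkl differences turned to 0.00317 (adjusted p = 0.952) with upper quartile scaling.

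Aldolase splits the 6-carbon sugar, and both of its genes rose. Aldoa was at 1354 and 1342 CPM in control, 1527 and 1523 CPM for sgRNA1 and 3286 and 3258 CPM for sgRNA2, with sgRNA1 a little and sgRNA2 far above control (0.18 ± 0.04 and 1.28 ± 0.04). Aldoc, the brain-type gene, was at 13 and 12.5 CPM in control, 22.9 and 23.7 CPM for sgRNA1 and 128 and 127 CPM for sgRNA2, and each line stood apart. Its differences were 0.87 ± 0.08 with sgRNA1 and 3.32 ± 0.07 with sgRNA2 (adjusted p = 5.82e-17). Even so, Aldoc stayed the minor gene per length, at a mean of 39.0 CPM per kb of exon with sgRNA2 against 1124 for Aldoa.

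The enolase genes showed the widest split between isoenzymes. Eno2, the neuronal-type enolase, was at 10.6 and 12 CPM in control, 23.3 and 25.1 CPM for sgRNA1 and 138 and 138 CPM for sgRNA2. The lines did not overlap, and the differences were 1.09 ± 0.08 with sgRNA1 and 3.61 ± 0.07 with sgRNA2, a 12.2-fold level and the largest among the members (adjusted p = 3.71e-17). Eno1, the enolase of most tissues, was at 1749 and 1785 CPM in control, 1523 and 1529 CPM for sgRNA1 and 1701 and 1691 CPM for sgRNA2, lower with sgRNA1 by 0.21 ± 0.05, a call lost with upper quartile scaling (-0.107, adjusted p = 0.0701), and not called with sgRNA2 (-0.06 ± 0.05). Per length, Eno1 remained the major gene at a mean of 315 CPM per kb with sgRNA2 against 29.4 for Eno2. Reads of Eno1 can be shared with its near-identical copies Eno1b and Gm4735, the latter at up to 740.4 CPM, so its values are uncertain to that extent.

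**Figure D3:**
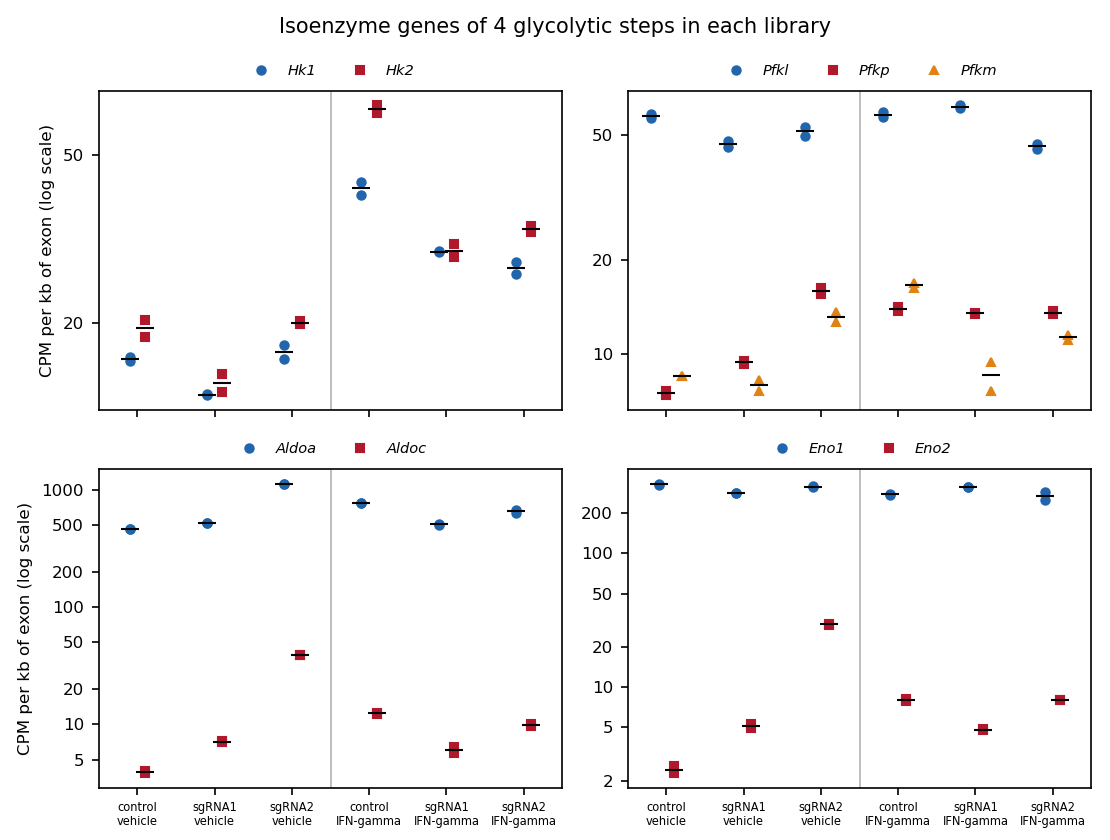
CPM per kb of exon (log axes, which differ between panels) for the isoenzyme genes of the hexokinase, phosphofructokinase, aldolase and enolase steps: each point is 1 library and each bar the mean of 2. In vehicle, Aldoc and Eno2 are highest with sgRNA2 but stay below Aldoa and Eno1 in every group, and both hexokinases are highest in control with IFN-gamma.

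Of the remaining enzymes, Pgk1 moved most. Pgk1, which makes the first ATP of glycolysis, was at 1853 and 1755 CPM in control, 2570 and 2565 CPM for sgRNA1 and 5178 and 5193 CPM for sgRNA2. The 3 lines stood apart, with differences of 0.51 ± 0.04 with sgRNA1 and 1.52 ± 0.04 with sgRNA2. Ldha, the lactate dehydrogenase subunit that favours lactate formation, was at 2236 and 2207 CPM in control, 2784 and 2767 CPM for sgRNA1 and 3132 and 3042 CPM for sgRNA2, higher by 0.32 ± 0.04 and 0.47 ± 0.04. Tpi1, Gapdh and Pgam1, between aldolase and enolase, were higher with sgRNA2 by 0.34 ± 0.04, 0.49 ± 0.04 and 0.21 ± 0.04. With sgRNA1 only Gapdh of these 3 was called, lower by 0.15 ± 0.04. This call was lost without control replicate 2 (-0.0976) and without sgRNA1 replicate 2 (-0.138). Upper quartile scaling also lost it (-0.0427, adjusted p = 0.424), and called Tpi1 higher with sgRNA1 (0.156, adjusted p = 0.00317). Gapdh has near-identical copies in 48 other genes, 11 of them with rows in the table, one at up to 1514 CPM, and Pgam1 has 1 at up to 184 CPM, so both are uncertain. Pkm, which encodes pyruvate kinase, was at 3877 and 4063 CPM in control, 3507 and 3405 CPM for sgRNA1 and 4141 and 4048 CPM for sgRNA2, lower with sgRNA1 by 0.20 ± 0.04 and not called with sgRNA2 (0.04 ± 0.04), but called higher there with upper quartile scaling (0.211, adjusted p = 5.78e-05). Part of its exons also belong to Gm49759, at up to 340.5 CPM, so its values are uncertain to that extent.

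Of the kinases that steer flux, Pdk1 and Pfkfb3 rose more than most enzymes with sgRNA2. Pdk1 blocks the entry of pyruvate into the mitochondrial cycle by phosphorylating pyruvate dehydrogenase. It was at 58.2 and 61.6 CPM in control, 86.7 and 81.8 CPM for sgRNA1 and 208 and 218 CPM for sgRNA2, with each line apart and differences of 0.49 ± 0.05 with sgRNA1 and 1.83 ± 0.05 with sgRNA2 (adjusted p = 1.76e-15). Pfkfb3, whose product raises the activator of phosphofructokinase, was at 16.5 and 18.6 CPM in control, 19.98 and 22 CPM for sgRNA1 and 41.7 and 42.7 CPM for sgRNA2, higher with sgRNA2 by 1.27 ± 0.08. With sgRNA1 it was called at 0.25 ± 0.09, but not without control replicate 1 (0.168, adjusted p = 0.215), without sgRNA1 replicate 2 (0.188, adjusted p = 0.167) or by DESeq2 (0.25, adjusted p = 0.0539). Pfkfb4, its relative, had few reads, at 8.16 and 7.08 CPM in control, 5.34 and 5.61 CPM for sgRNA1 and 9.12 and 11.1 CPM for sgRNA2. It was called lower with sgRNA1 (-0.48 ± 0.15, adjusted p = 0.0129) and higher with sgRNA2 (0.40 ± 0.14, adjusted p = 0.016). The first call was lost without control replicate 1 (-0.373, adjusted p = 0.116) or sgRNA1 replicate 1 (-0.44, adjusted p = 0.0763), and the second without control replicate 2 (0.297, adjusted p = 0.137) or sgRNA2 replicate 2 (0.219, adjusted p = 0.262) and by DESeq2 (0.388, adjusted p = 0.0645).

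**Figure D4:**
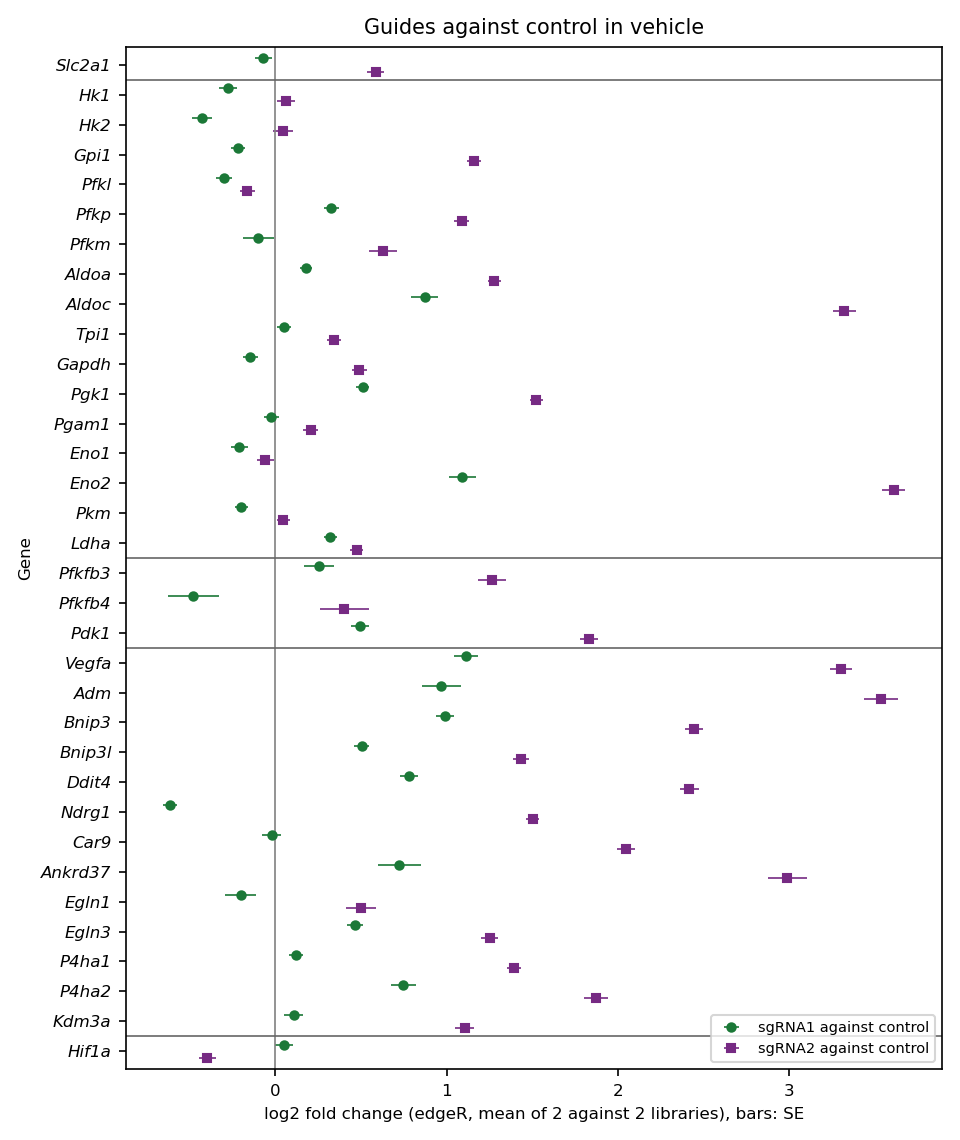
Log2 fold change against control in vehicle for the 34 tested members (rows, grouped by role) with sgRNA1 (green circles) and sgRNA2 (purple squares): bars are SE and both series use the same 2 control libraries. The purple squares reach 3.61 for Eno2 and 3.54 for Adm, while the green circles stay between -0.62 for Ndrg1 and 1.11 for Vegfa.

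Compared directly in vehicle, the 2 guides differed in every tested member. With sgRNA2 against sgRNA1, 33 members were higher and 1, Hif1a, was lower, where 62.3% of all genes were called, 33.2% higher and 29.1% lower. By at least 2-fold, 16 members were higher, as were 8.36% of all genes. The median was 0.96 against 0.05 over all genes. All 20 glycolysis genes were higher (median 0.69, range 0.14 to 2.52), and all 13 HIF targets were higher (median 1.46, range 0.70 to 2.57). The largest differences between the guides were 2.57 ± 0.09 for Adm, 2.52 ± 0.06 for Eno2, 2.45 ± 0.06 for Aldoc, 2.27 ± 0.11 for Ankrd37, 2.19 ± 0.06 for Vegfa, 2.12 ± 0.04 for Ndrg1 and 2.07 ± 0.05 for Car9. The smallest were those of Pfkl (0.14 ± 0.05), Eno1 (0.15 ± 0.05) and Ldha (0.15 ± 0.04). Pfkl was not called without sgRNA1 replicate 2 (0.0983, adjusted p = 0.158) or sgRNA2 replicate 1 (0.0506, adjusted p = 0.448), Ldha not without sgRNA2 replicate 1 (0.0917, adjusted p = 0.104), and Eno1 not without any 1 of the 4 libraries (0.107 to 0.15). Hif1a was lower with sgRNA2 by 0.45 ± 0.05.

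In the control line, IFN-gamma raised most members, led by Pfkfb3, Hk2, Eno2, Aldoc and Car9. Of the 34 members, 24 were higher and 4 lower than in vehicle, where 70.4% of all genes were called, 36.4% higher and 34.1% lower, with a median of 0.34 against 0.01 over all genes. By at least 2-fold, 8 members were higher, as were 12.4% of all genes. Glycolysis genes (12 higher and 3 lower of 20, median 0.42) and HIF targets (11 higher and 1 lower of 13, median 0.34) had medians closer to each other than in vehicle with sgRNA2. Hk2 was at 391 and 376 CPM in control, 171 and 183 CPM for sgRNA1 and 196 and 202 CPM for sgRNA2 with IFN-gamma. The control libraries were the highest of all 12, and the response was 1.73 ± 0.06 in control, 1.04 ± 0.06 with sgRNA1 and 0.74 ± 0.06 with sgRNA2. Hk1 was at 367 and 344 CPM in control, 252 and 251 CPM for sgRNA1 and 237 and 223 CPM for sgRNA2, again with control above both knockout lines, and responses of 1.35 ± 0.05, 1.13 ± 0.05 and 0.66 ± 0.05. Pfkfb3 was at 61.3 and 58.5 CPM in control, 53.5 and 57.8 CPM for sgRNA1 and 45.9 and 50.5 CPM for sgRNA2, with responses of 1.77 ± 0.08, 1.41 ± 0.08 and 0.20 ± 0.07. The last was not called without sgRNA2 replicate 2 of the IFN-gamma group (0.125, adjusted p = 0.234), with upper quartile scaling (0.0741, adjusted p = 0.375) or by DESeq2 (0.205, adjusted p = 0.0569). Hif1a was at 414 and 439.8 CPM in control, 244 and 262 CPM for sgRNA1 and 345 and 356 CPM for sgRNA2, and was the only other member higher in all 3 lines, by 1.01 ± 0.05, 0.20 ± 0.05 and 1.12 ± 0.05. Its sgRNA1 response was not called with upper quartile scaling (0.108, adjusted p = 0.0774).

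Pgam1, Eno1 and Ldha were the 3 glycolysis genes lower in the control line. Ldha was at 1250 and 1219 CPM in control, 2350 and 2259 CPM for sgRNA1 and 2062 and 1915 CPM for sgRNA2, so that IFN-gamma lowered it most in control, by 0.85 ± 0.04, against 0.27 ± 0.04 with sgRNA1 and 0.64 ± 0.04 with sgRNA2. Both differences in response from control were called (0.58 ± 0.06 and 0.21 ± 0.06). Pgam1 fell in all 3 lines, by 0.65 ± 0.04, 0.27 ± 0.04 and 0.90 ± 0.04. Ankrd37 was the only HIF target lower in the control line. It was at 6.72 and 7.97 CPM in control, 7.50 and 5.02 CPM for sgRNA1 and 4.72 and 4.12 CPM for sgRNA2, below its vehicle libraries in each line, and fell by 0.77 ± 0.14, 1.72 ± 0.14 and 4.50 ± 0.13. Eno1 was lower in control by 0.25 ± 0.05. Pkm, Pfkl, Tpi1, Pgk1, Slc2a1 and P4ha2 were not called in control, with responses from -0.08 for Slc2a1 to 0.01 for Pfkl. With upper quartile scaling Slc2a1 (-0.136, adjusted p = 0.021), Tpi1 (-0.118, adjusted p = 0.0147) and Pgk1 (-0.085, adjusted p = 0.0432) were called lower.

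In the sgRNA2 line IFN-gamma did the opposite to most members. There 30 of 34 members were lower and 4 higher, where 59.7% of all genes were called, 30.5% higher and 29.2% lower, with a median of -0.88 against -0.02 over all genes. By at least 2-fold, 14 members were lower, as were 7.48% of all genes. With upper quartile scaling the median of all genes was -0.14, 38.1% and not 51.1% of the called genes were higher, and 30 members were lower. All 13 HIF targets were lower (median -1.12, range -4.50 to -0.63), and 17 of 20 glycolysis genes (median -0.61), with Hk1, Hk2 and Pfkfb3 as the 3 higher. Pfkm lost its call without any 1 of the 4 libraries (-0.239 to -0.11), and Pfkl without replicate 1 of the vehicle group (-0.0588) or either of the IFN-gamma group (-0.127 and -0.125). The sgRNA2 vehicle libraries, in which these genes were high, enter both this response and the vehicle comparison, so the 2 results are not independent. In the sgRNA1 line 17 members were higher and 9 lower, where 61.4% of all genes were called, 31.7% higher and 29.6% lower, with a median of 0.14 against 0.00 over all genes. Upper quartile scaling left 9 of 34 members higher, a share near that of all genes, of which 3579 of 13601 were then higher. The median of all genes was then -0.09, and 42.7% and not 51.7% of the called genes were higher.

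The levels with IFN-gamma show where the lines ended. Adm was at 8.70 and 9.71 CPM in control, 6.51 and 6.31 CPM for sgRNA1 and 7.95 and 7.93 CPM for sgRNA2 with IFN-gamma, between 6.31 and 9.71 CPM in all 3 lines. Its response was -1.15 ± 0.12 with sgRNA1, -3.41 ± 0.10 with sgRNA2 and 0.34 ± 0.12 in control, the last of which was not called without control replicate 1 (0.338, adjusted p = 0.0623) or 2 (0.339, adjusted p = 0.0611) of the vehicle group, or 2 of the IFN-gamma group (0.259, adjusted p = 0.133). Vegfa was at 39.4 and 44.8 CPM in control, 51.5 and 49.3 CPM for sgRNA1 and 57.7 and 62.6 CPM for sgRNA2, rising in control by 0.83 ± 0.07, falling with sgRNA2 by 1.95 ± 0.06 and not called with sgRNA1 (-0.02 ± 0.06). Ddit4 was at 361 and 334 CPM in control, 242 and 225 CPM for sgRNA1 and 199.5 and 206 CPM for sgRNA2, now highest in control and lowest with sgRNA2. It rose in control by 0.77 ± 0.05 and fell by 0.58 ± 0.05 with sgRNA1 and 2.42 ± 0.05 with sgRNA2. Car9 was at 127 and 128 CPM in control, 45.6 and 46.5 CPM for sgRNA1 and 58.4 and 58.6 CPM for sgRNA2, highest in control after a rise there (1.44 ± 0.05), not called with sgRNA1 (-0.01 ± 0.06) and lower with sgRNA2 by 1.73 ± 0.05. Ndrg1 was at 1101 and 1103 CPM in control, 586 and 589 CPM for sgRNA1 and 651 and 637 CPM for sgRNA2, higher in control by 1.42 ± 0.04 and with sgRNA1 by 1.12 ± 0.04 and lower with sgRNA2 by 0.86 ± 0.04.

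Of the glycolysis genes, 9 of the 20 were higher with IFN-gamma in control and lower with sgRNA2, among them Eno2, Aldoc, Gpi1 and Pdk1. Eno2 was at 38.1 and 37.1 CPM in control, 22.4 and 22.8 CPM for sgRNA1 and 37.5 and 37.7 CPM for sgRNA2, and the control and sgRNA2 libraries overlapped. It had risen in control by 1.73 ± 0.07, fallen with sgRNA2 by 1.88 ± 0.06 and was not called with sgRNA1 (-0.10 ± 0.07). Aldoc was at 39.99 and 41 CPM in control, 18.5 and 20.9 CPM for sgRNA1 and 32.7 and 31.4 CPM for sgRNA2, with responses of 1.67 ± 0.07 in control, -0.25 ± 0.07 with sgRNA1 and -1.99 ± 0.06 with sgRNA2. The sgRNA1 call for Aldoc was lost without replicate 1 of its IFN-gamma group (-0.157, adjusted p = 0.12). Gpi1 was at 612 and 614 CPM in control, 404 and 408 CPM for sgRNA1 and 420.1 and 406 CPM for sgRNA2, with control highest, and its response was 0.52 ± 0.04 in control and -1.22 ± 0.04 with sgRNA2. Pgk1 was at 1779 and 1766 CPM in control, 2047 and 1994 CPM for sgRNA1 and 2371 and 2284 CPM for sgRNA2. It was not called in control (-0.03 ± 0.04) and was lower by 0.35 ± 0.04 and 1.16 ± 0.04 in the knockout lines. With upper quartile scaling it was called lower in control too (-0.085, adjusted p = 0.0432). Pdk1 was at 73 and 77 CPM in control, 75.7 and 76.7 CPM for sgRNA1 and 85.7 and 85.4 CPM for sgRNA2, with a response of 0.32 ± 0.05 in control and -1.32 ± 0.05 with sgRNA2. Over all members, 20 were higher with IFN-gamma in control and lower in the sgRNA2 line, 9 of them glycolysis genes and 11 HIF targets, and these 2 responses share no library. Of all tested genes, 36.4% were higher in control and 29.2% were lower in the sgRNA2 line. How many of all genes had both calls was not counted, so the 20 and the 9 have no background here. Among the 20, Egln1 lost its call in control without replicate 1 of the IFN-gamma group (0.15, adjusted p = 0.229) or replicate 2 of the vehicle group (0.167, adjusted p = 0.187), by DESeq2 (0.252, adjusted p = 0.0862) and with upper quartile scaling (0.184, adjusted p = 0.0716). Egln3 also lost its call in control with upper quartile scaling (0.104, adjusted p = 0.0634).

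Among the remaining HIF targets, Bnip3 was at 194 and 206 CPM in control, 368 and 344 CPM for sgRNA1 and 407 and 377 CPM for sgRNA2 with IFN-gamma, and the order of the lines stayed as in vehicle with smaller gaps. It rose by 0.35 ± 0.05 in control and 0.19 ± 0.05 with sgRNA1 and fell by 1.12 ± 0.05 with sgRNA2. Egln3 was at 151 and 151 CPM in control, 122 and 126 CPM for sgRNA1 and 109.5 and 98.2 CPM for sgRNA2, with control highest and sgRNA2 lowest, and responses of 0.16 ± 0.05 in control, -0.58 ± 0.05 with sgRNA1 and -1.63 ± 0.05 with sgRNA2. The 2 collagen hydroxylase genes parted here. P4ha1 was at 256 and 254 CPM in control, 167 and 172 CPM for sgRNA1 and 180.5 and 184 CPM for sgRNA2, with control highest and responses of 0.94 ± 0.04 in control and -0.94 ± 0.04 with sgRNA2. P4ha2 was at 17.6 and 17.6 CPM in control, 43.3 and 44.2 CPM for sgRNA1 and 28.6 and 32.5 CPM for sgRNA2, with control lowest, sgRNA1 highest and responses of -0.04 ± 0.08 in control, 0.52 ± 0.07 with sgRNA1 and -1.12 ± 0.06 with sgRNA2. Kdm3a was at 98.3 and 104 CPM in control, 99.3 and 97.4 CPM for sgRNA1 and 81.9 and 89.99 CPM for sgRNA2, with overlap between control and sgRNA1 and a response of -1.03 ± 0.05 with sgRNA2.

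The difference between responses was tested as an interaction. It equals the difference between 2 lines with IFN-gamma less that in vehicle, so it is not independent of the vehicle comparison. With sgRNA2 against control the median of the members was 1.21 in vehicle and -0.30 with IFN-gamma. For sgRNA2 against control, 31 of 34 members had a lower response and 1, Ldha, a higher one, where 65.1% of all genes were called, 34.7% lower and 30.4% higher, with a median of -1.26 against -0.08 over all genes. The median was -1.88 for the HIF targets and -1.06 for the glycolysis genes. Hif1a (0.12 ± 0.07) and Eno1 (0.02 ± 0.07) were not called, but without sgRNA2 replicate 2 of the IFN-gamma group Eno1 was called higher (0.118, adjusted p = 0.0487). Hif1a was called higher without sgRNA2 replicate 1 of the IFN-gamma group (0.218, adjusted p = 0.0198) or sgRNA2 replicate 2 of the vehicle group (0.195, adjusted p = 0.05). Pfkl was called at -0.17 ± 0.06, and lost the call without any 1 of 6 of the 8 libraries (-0.15 to -0.0517). For sgRNA1 against control, 21 had a lower response and 7 a higher one, where 55.1% of all genes were called, 28.2% lower and 26.9% higher, with a median of -0.37 against -0.03 over all genes. The 7 higher were Slc2a1, Pfkl, Tpi1, Pgam1, Eno1, Ldha and P4ha2, from 0.21 ± 0.06 for Tpi1 to 0.58 ± 0.06 for Ldha. Between the guides, 33 members had a lower response with sgRNA2 and Hif1a a higher one (0.92 ± 0.07), where 42.8% of all genes were called, 21.9% lower and 20.9% higher.

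**Figure D5:**
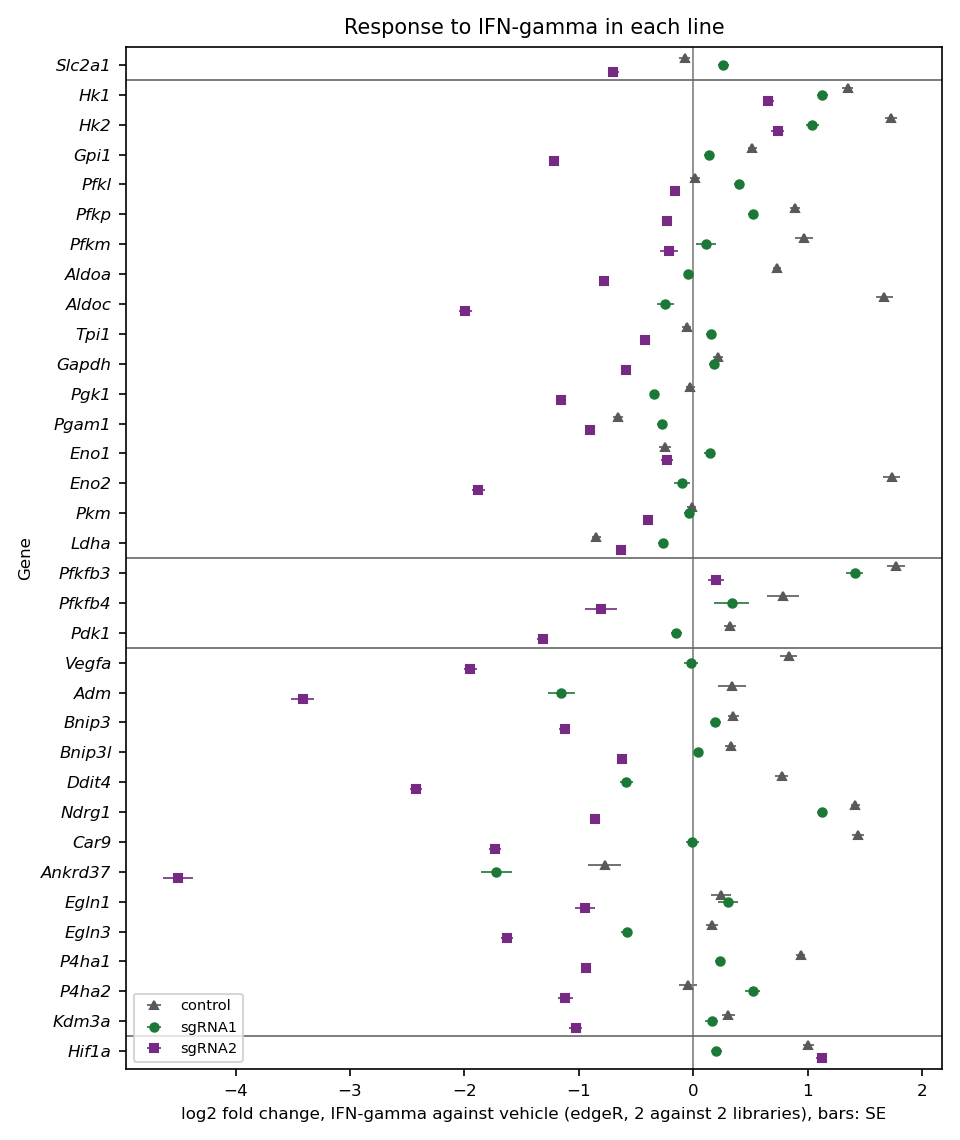
Log2 fold change of IFN-gamma against vehicle for the 34 tested members in control (grey triangles), sgRNA1 (green circles) and sgRNA2 (purple squares), with bars of SE. For most rows the triangles lie right of 0 and the squares left of it, and Hk1, Hk2, Pfkfb3 and Hif1a have all 3 symbols right of 0.

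With IFN-gamma present, the knockout lines held less of many members than the control line. With sgRNA1 10 members were higher and 17 lower than control, where 64.9% of all genes were called, 31.6% higher and 33.3% lower (median -0.20 against 0.00 over all genes). With sgRNA2 7 were higher and 20 lower, where 61.8% were called, 30.2% higher and 31.6% lower (median -0.30 against 0.03, and 0.13 over all genes with upper quartile scaling, when 7 were higher and 19 lower). Both comparisons use the same 2 control libraries. Glycolysis genes (6 higher and 10 lower with sgRNA1, 3 and 11 with sgRNA2) and HIF targets (4 and 6, then 4 and 8) were mixed in direction with either guide. Hk2 was lower by 1.12 ± 0.05 with sgRNA1 and 0.94 ± 0.05 with sgRNA2, Car9 by 1.47 ± 0.05 and 1.13 ± 0.05, and Pfkfb4 by 0.93 ± 0.14 and 1.19 ± 0.14. Ldha was higher by 0.90 ± 0.04 and 0.69 ± 0.04, Bnip3 by 0.83 ± 0.05 and 0.97 ± 0.05, and P4ha2 by 1.31 ± 0.07 and 0.80 ± 0.07. Against each other, sgRNA2 had 15 members higher and 16 lower than sgRNA1, where 47.9% of all genes were called, 23.4% higher and 24.5% lower. None of the 34 was called at 2-fold or more, and 3.76% of all genes were. Their median was -0.05, where it had been 0.96 in vehicle. Fewer members were called, and also fewer of all genes, on leaving out 1 of the 4 libraries. The calls of Adm (0.285 to 0.33) and P4ha1 (0.0825 to 0.124) were lost without any 1 of them, and those of Hk1, Hk2, Gapdh, Pkm, Pfkfb3, Pdk1, Bnip3, Ddit4, Ndrg1, Ankrd37 and Kdm3a without 1 or more.

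Summed over genes, the shift was visible in the makeup of the libraries. The 13 HIF targets held 0.162% of all counts in both control vehicle libraries, 0.199% and 0.197% for sgRNA1, and 0.54% and 0.535% for sgRNA2. The glycolysis genes held 1.62% and 1.65% in control, 1.67% and 1.65% for sgRNA1, and 2.43% and 2.41% for sgRNA2. With IFN-gamma the HIF targets took 0.237% to 0.276% and the glycolysis genes 1.57% to 1.80% in the 3 lines. Per length in control vehicle, Pgk1 (804 CPM per kb of exon), Pkm (794), Ldha (671), Pgam1 (652), Aldoa (463) and Gapdh (441) had the highest levels among the members. Pfkfb4 (1.56), Pfkfb3 (2.32), Eno2 (2.41), P4ha2 (2.91), Aldoc (3.90), Adm (4.50) and Vegfa (5.51) had the lowest of the tested members.

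Other genes of the pathway were counted the same way. Of 27 further HIF targets tested, 21 were higher and 3 lower with sgRNA2 in vehicle, where 38.3% of all genes were higher and 35% lower. With sgRNA1 10 were higher and 5 lower, where 25.6% and 26.9% of all genes were. With sgRNA2 the higher ones included Ero1a (2.14 ± 0.04), Fam162a (2.05 ± 0.06), Bhlhe40 (1.77 ± 0.04) and Hilpda (1.74 ± 0.07), while Stc2 was lower (-1.53 ± 0.18). Loxl2 was also called, at 0.851 and 1.04 CPM with sgRNA2 and 0 and 0.157 CPM in control, which is too low for a fold change. With IFN-gamma, 15 of the 27 were higher and 10 lower in control, beside 36.4% and 34.1% of all genes, and 3 higher and 20 lower in the sgRNA2 line, beside 30.5% and 29.2%. Of 13 genes of the HIF machinery, 4 were higher and 6 lower with sgRNA2, a share near the 73.3% of all genes called, among them Vhl at 1.16 ± 0.07 and Arnt at 0.79 ± 0.05, and Arnt rose with IFN-gamma in control by 1.29 ± 0.05. Epas1, which encodes the HIF-2 alpha subunit, was at 0 to 0.151 CPM in all libraries.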

How the data were processed

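RNA-seq counts per gene were deposited by the authors for 12 libraries of 4T1 cells in 6 groups of 2. Per the submitters' processing notes, STAR 2.4.0, HTSeq, DESeq2 1.10 and the mm10 build were used; the strand setting of the counting is not given in the sources used here; the kit does not mark strand. From these counts, edgeR 4.0.16 (R 4.3.3) fitted 1 quasi-likelihood model over the 6 groups (TMM scaling, filterByExpr with a minimum count of 10 and a minimum total of 15, 6 residual degrees of freedom, common biological coefficient of variation 4.67%). The fit covered 13601 of 16283 genes, which hold 99.965% of counts, and p-values were Benjamini-Hochberg adjusted over all of them at a threshold of 0.05 in each of 12 comparisons. SE is the absolute log2 fold change over the root of the F statistic. Total counts per library were 16912710 or more, and the spread between libraries also enters each SE. The members, pathway lists, markers and tests were chosen with earlier results of these data known. Members are named by role, with values for those that changed by at least 2-fold in a comparison and their paralogues; pathway genes outside the members are named where they changed most. Alternatives were DESeq2 1.42.0, RLE and upper quartile scaling, no filter or 1 CPM in 2 libraries, a replicate block, only the compared libraries, and leaving out each library. Models were checked on simulated counts for sgRNA2 against control in vehicle, with 13267 genes. Of 100 genes given a log2 difference of 0.5, 71 were recovered, and of 100 given 1, 84 were. There were 17 false calls. Only these genes differed in the simulation, as many up as down, while 73.3% of all genes were called in the data. The simulation therefore does not check the choice of scaling. Leaving out 7 members that share sequence or exons with another gene was added after seeing the data. Replicates of the 6 groups differed by more than sampling noise. Slc2a3 is not analysed here.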

Additional observations from a re-analysis of the deposited data

Results flagged for a closer look

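Responses to IFN-gamma that differed between lines were tested as the interaction term of edgeR's quasi-likelihood model; the genes named here were called in opposite directions in the 2 lines compared, and values are differences in log2 response. These differences use the same vehicle libraries as the vehicle comparisons and are not independent of them. The share of all tested genes called in opposite directions was not counted, so the numbers of members so called have no background. For sgRNA2 minus control, 32 members were called, beside 65.1% of all genes. Among the HIF targets, the difference was -3.75 for Adm, -3.19 for Ddit4, -3.17 for Car9, -2.78 for Vegfa and -2.28 for Ndrg1. It was -1.88 for P4ha1, -1.79 for Egln3, -1.48 for Bnip3, -1.34 for Kdm3a, -1.19 for Egln1 and -0.95 for Bnip3l. Among the glycolysis genes it was -3.66 for Aldoc, -3.61 for Eno2, -1.73 for Gpi1, -1.64 for Pdk1 and -1.59 for Pfkfb4. The remaining glycolysis genes were Aldoa at -1.51, Pfkm at -1.18, Pfkp at -1.12 and Gapdh at -0.81. All 20 were called higher in control and lower with sgRNA2, but these calls were lost under some settings for Adm, Egln1 and Egln3 in control and for Pfkm with sgRNA2.

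For sgRNA1 minus control, 28 members were called, beside 55.1% of all genes. Of the 28, 6 changed in opposite directions in the 2 lines, a pattern not counted over all genes. Aldoc (-1.92), Adm (-1.49), Ddit4 (-1.35), Egln3 (-0.75) and Pdk1 (-0.47) rose in control and fell with sgRNA1, and Eno1 (0.39) did the reverse. The sgRNA1 call was lost without 1 of 3 libraries for Eno1 (0.139 to 0.148) and Pdk1 (-0.157 to -0.102), without 1 library for Aldoc (-0.157), and with upper quartile scaling for Eno1 (0.0512). For sgRNA2 minus sgRNA1, 34 members were called, beside 42.8% of all genes. Ndrg1 (-1.99), P4ha2 (-1.64), Bnip3 (-1.32), Egln1 (-1.25), Kdm3a (-1.19) and P4ha1 (-1.17) among the HIF targets rose with sgRNA1 and fell with sgRNA2. So did Gpi1 (-1.35), Slc2a1 (-0.96), Gapdh (-0.77), Pfkp (-0.75), Tpi1 (-0.58), Pfkl (-0.56) and Eno1 (-0.38). With upper quartile scaling the rise with sgRNA1 was not called for Bnip3 (adjusted p = 0.0966), Egln1 (0.0502), Kdm3a (0.323), Gpi1 (0.383), Gapdh (0.0932), Tpi1 (0.228) and Eno1 (0.374). It was also lost on leaving out 1 library for Egln1, Kdm3a, Gpi1, Tpi1 and Eno1, and the fall of Pfkl with sgRNA2 likewise.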

How the results depend on the processing

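Over 34 members and 12 comparisons, 408 values were recomputed under each setting with all libraries. Direction and call held for 399 with DESeq2, 407 with RLE scaling, 406 with no filter, 408 with the stricter filter and 393 with only the compared libraries. Upper quartile scaling held 375, with 18 calls lost, 14 gained and 1 direction reversed, that of Pfkl with sgRNA2 in vehicle (0.00317). It left 1 member lower with sgRNA2 in vehicle, 7 lower with IFN-gamma in control and 9 higher with IFN-gamma in sgRNA1. Of 2040 values with 1 library left out, 1938 held, 90 lost a call and 12 gained one. Same-numbered libraries of different groups did not deviate together (15 pairs of groups, correlations -0.0788 to 0.0642), and a replicate block left all 408 calls as they were and moved the calls over all genes with sgRNA2 in vehicle from 9971 to 9947.

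The median of the HIF targets minus that of the glycolysis genes was the value that moved most. It was 1.34 with sgRNA2 and 0.55 with sgRNA1 in vehicle, 0.76 between the guides there, -0.08 and -0.51 for IFN-gamma in control and sgRNA2, and -0.82 for the difference between these 2 responses. With no filter it was 1.38 with sgRNA2 and 0.8 between the guides in vehicle, -0.114 with sgRNA1 and -0.247 with sgRNA2 under IFN-gamma, 0.0129 for IFN-gamma in control, and -0.889 for the response of sgRNA2 minus control. Without the 7 members that share reads it was 0.368 with sgRNA1, 0.814 with sgRNA2 and 0.419 between the guides in vehicle. Under IFN-gamma it was then 0.0901, -0.0841 and 0.171 in the same order. For the responses it was -0.281 in control, -0.0422 with sgRNA1 and -0.38 with sgRNA2, and for their differences -0.128, -0.512 and -0.59, while 1 member was lower with IFN-gamma in control. The cause was not tested beyond these members' absence.

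With 1 library left out it ranged from 0.519 to 0.557 with sgRNA1 and from 1.24 to 1.4 with sgRNA2 in vehicle, from -0.157 to -0.0666 with sgRNA1 and from 0.159 to 0.23 between the guides under IFN-gamma. For the responses it ranged from -0.125 to -0.0405 in control, -0.141 to -0.0515 with sgRNA1 and -0.662 to -0.503 with sgRNA2. For their differences it ranged from -0.407 to -0.357 for sgRNA1 and -0.85 to -0.804 for sgRNA2 against control, and -1.02 to -0.783 between the guides. The members with a higher response with sgRNA2 than in control numbered 1 to 2. Depth limits Pfkfb4, Adm and Ankrd37 most, at under 10 CPM in some groups, and 2 libraries a group limit every SE.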

Other observations

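Genes on branches beside glycolysis were called about as often as all genes with sgRNA2 in vehicle. Of 7 tested genes of the pentose phosphate pathway, which makes NADPH and ribose from glucose, 1 was higher and 4 were lower with sgRNA2 in vehicle, and 0 higher and 3 lower with sgRNA1, with backgrounds of 73.3% and 52.5% called. Pgd, whose enzyme makes NADPH, was at -1.21 ± 0.05 with sgRNA2. Of 11 genes that govern the entry of pyruvate into mitochondria, 4 were higher and 4 lower with sgRNA2, beside 38.3% and 35% of all genes. Pdk2, a kinase that inhibits pyruvate dehydrogenase, was higher by 3.56 ± 0.26 with sgRNA2 and rose with IFN-gamma in control by 3.13 ± 0.26 and fell with it in the sgRNA2 line by 1.23 ± 0.19, and Pdp2, the opposing phosphatase, was lower by 1.35 ± 0.11. Pdk2 started from few reads, at 0.465 and 0.629 CPM in control vehicle.

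Of 11 further genes of glucose uptake, lactate and glycolytic control, 5 were higher and 3 lower with sgRNA2 in vehicle, beside the same 38.3% and 35%. The glucose transporter gene Slc2a8 (2.43 ± 0.16) and the lactate dehydrogenase gene Ldhb (1.75 ± 0.17) were higher. Tigar, a phosphatase that slows glycolysis, was lower by 1.81 ± 0.14, and Slc16a1, a lactate transporter gene, by 1.10 ± 0.05. With IFN-gamma in control Slc2a8 rose by 2.58 ± 0.16, and Tigar fell by 1.86 ± 0.13. Slc2a6, another glucose transporter gene, was also called higher in both comparisons, at 0.207 and 0.21 CPM in control vehicle, too low for a fold change, 0.567 and 0.726 CPM with sgRNA2 and 5.55 and 6.43 CPM in control with IFN-gamma.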
